A study of Arabidopsis thaliana with 88 samples.

Results

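Accession 9518 is an inbred line of Arabidopsis thaliana from a natural population, and it supplied 4 of the 88 bisulfite libraries of a series on 32 accessions. It was selected on the CG methylation of its transposable elements (TEs), which stood low among the accessions. The CG values of its TE genes and TE fragments thus chose it, and they are given as a description with no p-value. Its 4 libraries, from sowing rounds 1 to 4, were set against the other 31 accessions with 84 libraries, each accession taken as the mean of its libraries. All plants were untreated, and the groups are accessions. Not every accession was sown in every round, with 17 to 25 of the other accessions in each. They grew on soil at 21 °C in long days, and leaves of 14-leaf rosettes from 2 to 3 plants were pooled for each library. A library thus averages over plants and leaf cells, and fewer cells with methylation and less methylation per cell cannot be told apart. Accession 6909 is Col-0, the reference line. A difference of 9518 from the reference in DNA sequence, such as a deletion or a moved copy, and a difference in methylation cannot be told apart in these values either.

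Plants methylate cytosines in CG, CHG and CHH, with H standing for A, C or T. The methyltransferase MET1 copies CG methylation onto the new strand after replication, and CMT3 maintains CHG methylation together with methylation of histone H3 lysine 9. CHH methylation is laid down by CMT2 and by DRM2, which small RNAs guide in RNA-directed DNA methylation. Silenced TEs carry methylation in every context, and many lie in the pericentromeres, the gene-poor regions around the centromeres. Many expressed genes carry CG methylation alone over the transcribed region, which is called gene-body methylation.

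The deposited values were fractions per locus and library, given here as percentages, with differences in percentage points. They came without read counts, so the depth of each is unknown. Over 24121 protein-coding genes, the CG levels of any pair of libraries of 9518 correlated across genes with a Pearson r of 0.919 to 0.931, against 0.617 to 0.830 with libraries of other accessions. Genes are not independent replicates, and the libraries share the annotation and the base composition of each gene. The share of TE genes with no data was 20.8% to 22.02% in the libraries of 9518 and 19.7% on average in the other accessions, whose range was 2.62% to 24.4%.

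TE genes, the annotated coding units of TEs, had a low mean level in 9518 in all 3 contexts. With deposited values of exactly 1, read here as no data in CHG and CHH, kept as levels, the CHH difference turned from -1.29 to 0.602 points. Over 2701 TE genes the CG level was 69.7%, 69.3%, 70.1% and 69.2% in its libraries, a mean of 69.6% ± 0.416 (SD, n = 4). The other accessions averaged 75.1% ± 2.75 (SD, n = 31) and ranged from 66.8% to 80.1%, and Col-0 was at 77.5%. Among 32 accessions 9518 was the second lowest, above 9512, an accession with 1 library. The libraries of 9470, its neighbour in that order, were at 69.5% and 70.2% and overlapped with those of 9518. Within rounds 1 to 4 the CG level of 9518 differed from that of the other accessions of its round by -6.01, -6.15, -4.93 and -6.12 points, so it was below their mean in every round.

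The CHG level of TE genes was low as well. Over 2573 TE genes it was 29.8%, 29.4%, 30.01% and 30.3% in the libraries of 9518, a mean of 29.9% ± 0.353, against 34.3% ± 3.42 (SD, n = 31) elsewhere. This was the third-lowest level, after 6244 at 27.5% and 10012 at 27.8%, and no library of 9518 was as low as those means. Within the 4 rounds the CHG difference was -5.62, -5.57, -3.65 and -4.02 points. The CHH level was 5.79%, 5.98%, 5.98% and 5.97%, a mean of 5.93% ± 0.0927, against 7.22% ± 0.898 elsewhere, and 10012 alone was lower, at 5.35%. Within the rounds the CHH difference was -1.66, -1.28, -1.37 and -1.18 points. These values come from the libraries that the CG rule used. With 1 accession against 31, the smallest p of a two-sided permutation test is 2 in 32, so ranks and ranges stand in place of a test.

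The accessions did not keep one order across the contexts. Accession 9512, lowest in CG, ranked 12 from below in CHG and 6 in CHH. Accession 9470, next to 9518 in CG, ranked 8 in CHG and 27 in CHH. Accession 10012, lowest in CHH, ranked 2 in CHG and 6 in CG. Of these 4 accessions, 9518 was the one among the 3 lowest in each context.

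**Figure D1:**
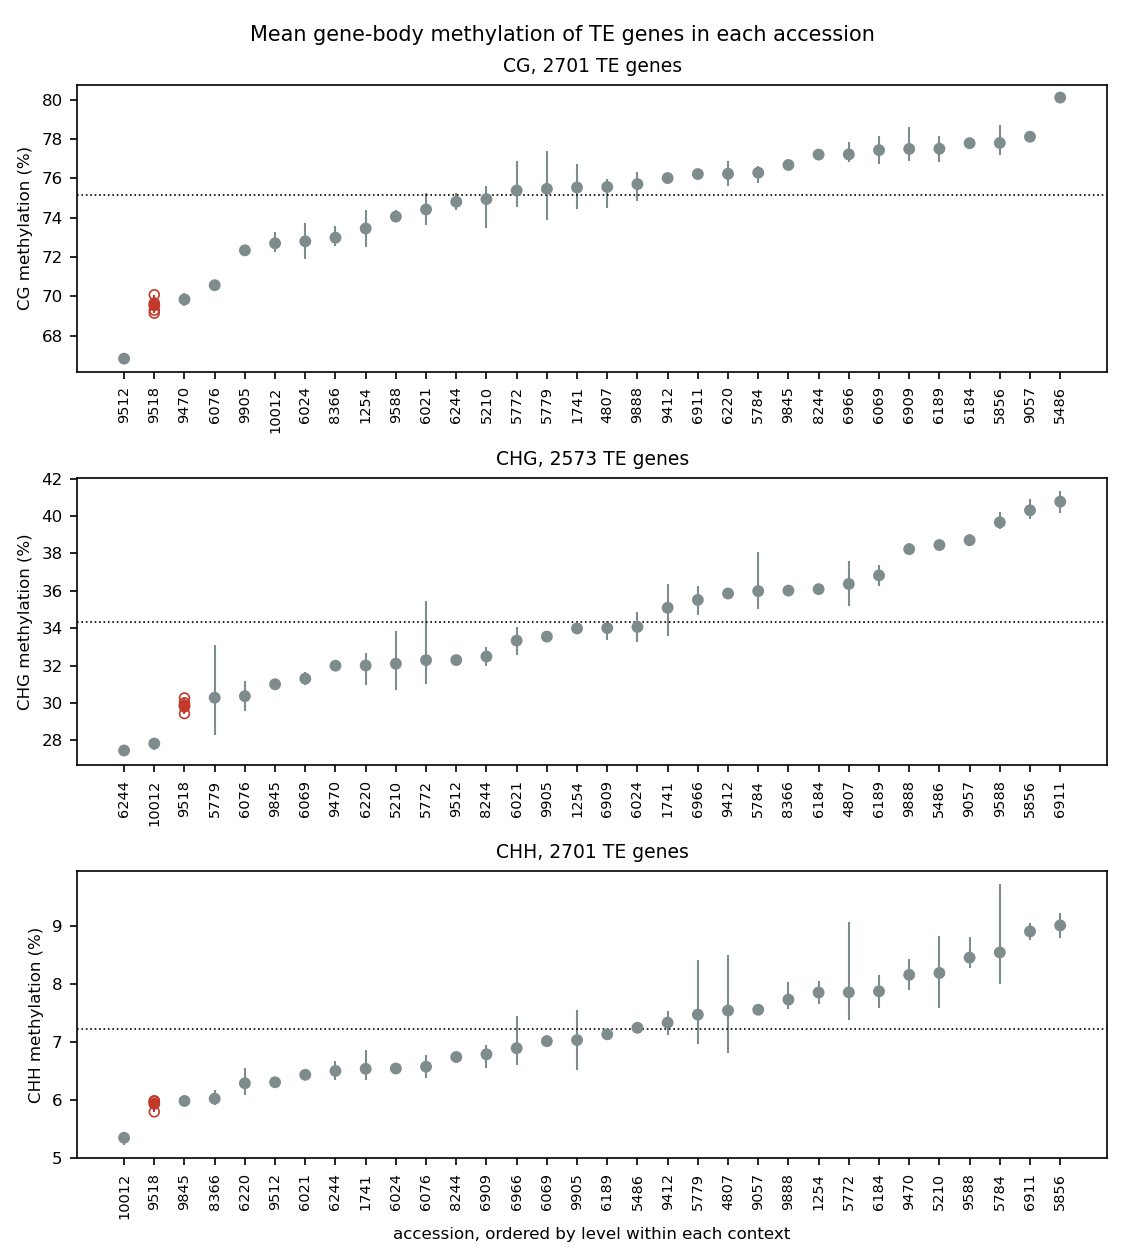
Mean methylation of TE genes (percent, y axis) in the 32 accessions (x axis, ordered by level) for each context, with the libraries of 9518 in red. Accession 9518 sits at 69.6% in CG, 29.9% in CHG and 5.93% in CHH, near the low end each time.

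The lower level was spread over many TE genes. In CG, 74.7% of the 2701 TE genes were lower in 9518 than the mean of the other accessions, with a median difference of -4.16 points. The share was 72.6% in CHG and 75.1% in CHH, with medians of -4.07 and -1.29 points. Such a share alone does not mark an accession as low. For CG in windows around the start of protein-coding genes it was 77.4%, where 9518 ranked 10 from below. Accession 9518 held the lowest CG value of all accessions at 124 TE genes, while the other 10 accessions with 4 libraries did so at 6 to 67. In CHG it was lowest at 107 TE genes, against 5 to 46, and in CHH at 92, against 11 to 50. Accessions with fewer libraries are not in these ranges. Among them are 9512, 9470, 6244 and 10012, whose mean levels were near or below that of 9518 in some contexts but not in all.

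Pericentromeric TE genes, 2134 of those with CG values, were at 73.7% in 9518 and 79.7% elsewhere, and the 567 TE genes of the chromosome arms were at 53.7% and 57.8%. The CG differences of -6.00 and -4.07 points ran the same way in both compartments. So did those in CHG, -4.83 and -3.01 points, and in CHH, -1.31 and -1.20 points. By chromosome the CG difference ran from -4.61 points on chromosome 1 to -6.04 points on chromosome 5.

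The contexts differed in how they varied with length. TE genes of 4000 bp or more differed by -6.12 points in CG, and those under 1000 bp by -5.76 points. In CHG the same groups differed by -6.09 and -2.37 points, and in CHH by -1.77 and -0.959 points. Of the long TE genes 82.4% were lower in CHH, and of the short ones 67.6%. The CHG and CHH differences were also larger where more methylation was present. CHG differed by -0.779 points in TE genes under 10% CHG elsewhere and by -6.71 points in those above 50%, and CHH by -0.0784 points in those under 2% and by -2.53 points in those above 10%. The lowest groups averaged 2.82% CHG and 0.923% CHH elsewhere, which leaves little room to fall in points. In 9518 they were at 2.04% and 0.845%, and the highest CHG group was at 47.1% against 53.8%. The part of the starting level in the contrast by length was not tested.

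**Figure D2:**
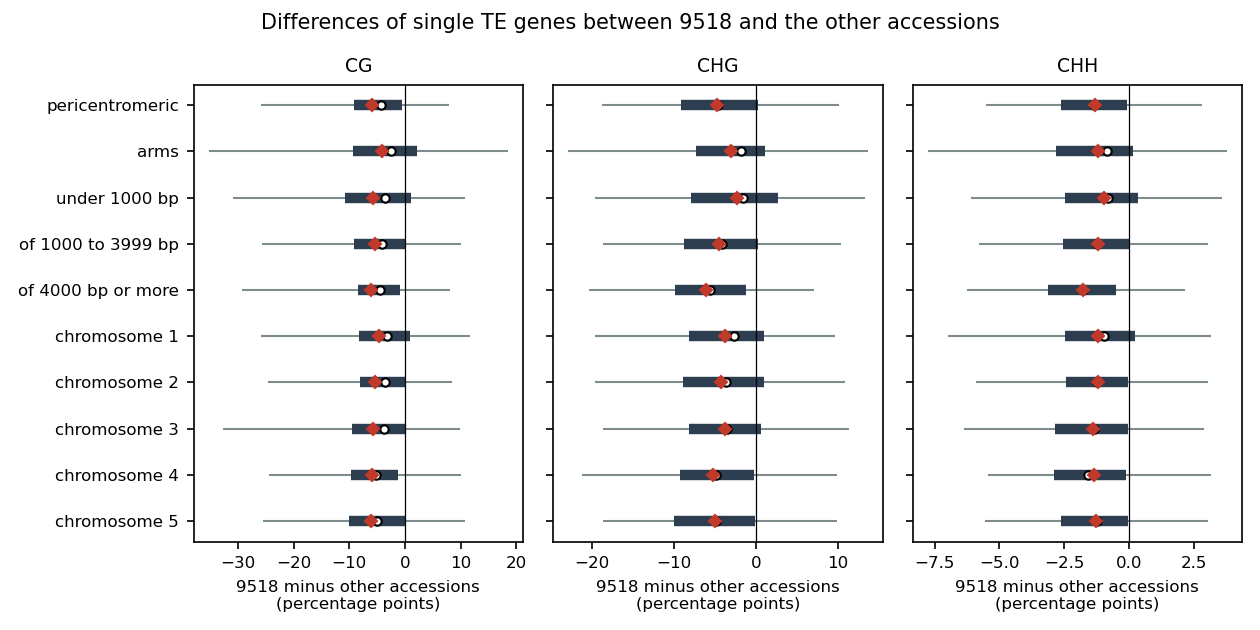
Differences of TE genes between 9518 and the mean of the other accessions (percentage points, x axis) by position, length and chromosome (y axis) for each context. Thin lines span the 5th to 95th percentile and thick bars the quartiles, white circles are medians and red diamonds differences of the mean level, which in CG are -6.00 points for pericentromeric and -4.07 points for arm TE genes.

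TE fragments, the annotated stretches of TE sequence, followed with smaller differences. Some cover the same DNA as a TE gene, as AT1TE19270 does AT1G17390 and AT3TE82555 does AT3G54823, so the fragments are not independent of the TE genes. Over 16845 fragments the CG level was 47.7%, 46.9%, 47.2% and 46.5% in the libraries of 9518, a mean of 47.1% ± 0.523, against 50.1% ± 2.30 (SD, n = 31) elsewhere, and 9518 was again second lowest after 9512. Pericentromeric fragments differed by -4.89 points in CG and those of the arms by -1.86 points. Fragments of 2000 bp or more differed by -5.46 points of CG, -4.62 of CHG and -1.33 of CHH, and those under 500 bp by -2.40, -0.729 and -0.434 points. With the values as deposited, fragments as a whole were higher in 9518 by 0.591 points of CHG and 1.61 points of CHH.

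Single loci were compared in 1 model per table, with the variance between libraries of an accession moderated across all loci by limma. A locus was called when its adjusted p was under 0.05, when 9518 differed from the mean of the other accessions by at least 20 points in CG, 10 in CHG or 5 in CHH, and when its mean lay outside the range of the other accession means. The standard error (SE) reflects the spread between libraries and not that between accessions, which the range covers. A stricter count, chosen after seeing the data, asks that every library of 9518 lie outside that range. Over all loci of the Araport11 gene-body table, 141 of 45590 were called higher in CG (0.309%) and 279 lower (0.612%). In CHG 126 of 42378 were higher (0.297%) and 184 lower (0.434%), and in CHH 102 of 47559 were higher (0.214%) and 34 lower (0.0715%).

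Among TE genes most CG and CHG calls were lower. In CG 59 of 2701 were called lower (2.18%) and 1 higher (0.037%), which restates the values that chose the accession. In CHG 76 of 2573 were called lower (2.95%) and 10 higher (0.389%). In CHH 13 of 2701 were called lower (0.481%) and 12 higher (0.444%), while on the adjusted p alone 130 were lower and 28 higher. With every library of 9518 outside the range, the lower TE genes were 14 for CG, 22 for CHG and 7 for CHH, and the higher ones 0, 1 and 1. The TE genes lower in CG averaged 43.1% CG in 9518 and 80.1% elsewhere, and 9 of the 59 were under 10%. Their CHG averaged 21.9% and 37.8%, and their CHH 5.26% and 7.91%, measured in the same libraries and loci that the rule used. The lower calls of CG and CHG shared 7 TE genes, 11.9% of those in CG and 9.21% of those in CHG. Just inside the size threshold lay AT5G46875 at -20.03 points of CG, and just outside it AT4G06708 at -19.8 points.

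TE fragments were called on both sides. In CG 171 of 16845 were lower (1.02%) and 80 higher (0.475%), and 62 of the 80 had a library at exactly 100%, a value that can also stand for a region with no data. In CHG 100 of 13846 were lower (0.722%) and 82 higher (0.592%), and in CHH 17 of 18803 were lower (0.0904%) and 71 higher (0.378%). With every library outside the range, 40, 24 and 9 fragments were lower and 14, 7 and 7 higher in CG, CHG and CHH.

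**Figure D3:**
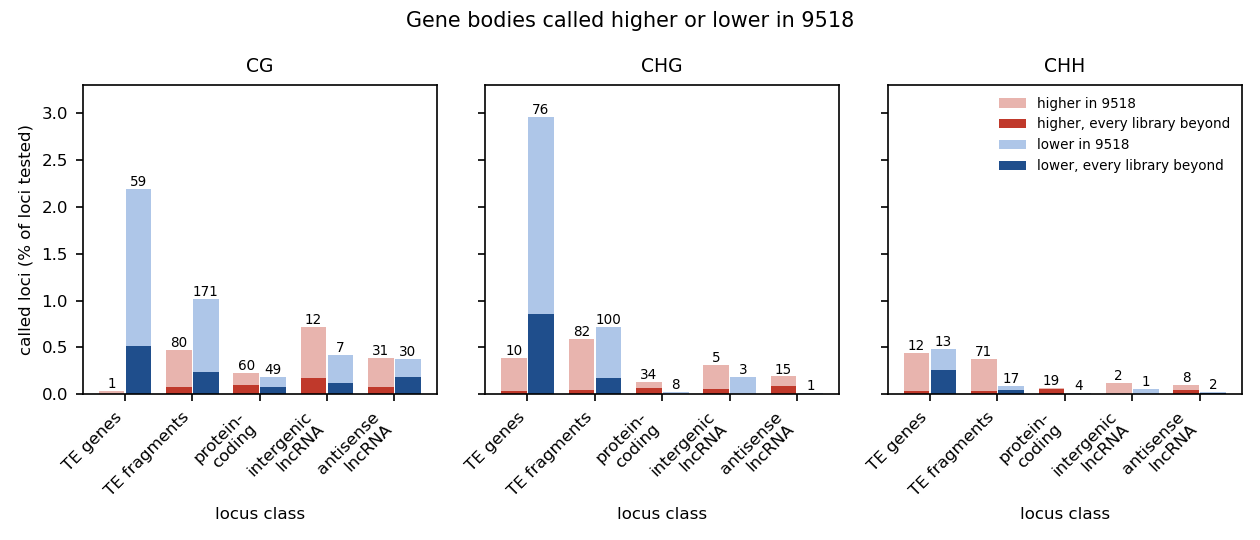
Share of gene bodies called higher or lower in 9518 (percent of loci tested, y axis, from 0) by class of locus (x axis) and context, with counts above the bars. The dark part of a bar holds loci with every library of 9518 outside the range of the other accessions, which is 14 of 59 TE genes lower in CG and 22 of 76 lower in CHG.

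The 4 TE genes with the largest CG differences, AT2G16010, AT2G05030, RE2 and AT3G29775, were methylated in every other accession with data and close to 0% in each library of 9518. A pericentromeric stretch of chromosome 2, chr2:1781547-1788352 in TAIR10, held 4 called loci on 6806 bp, the TE genes AT2G05030 and AT2G05040 and the fragments AT2TE08225 and AT2TE08235. The fragment AT2TE08225 covers both TE genes, so their values overlap. AT2G05030 (chr2:1781887-1782503) was at 0% CG in all 4 libraries of 9518, and the other accessions ranged from 71.1% to 92.8%. Its CHG levels were 1.64%, 0%, 0% and 1.67% in 9518 against 34.2% to 77.5% elsewhere, a difference of -54.9 points (SE 4.31, limma adjusted p = 1.15e-15). Its CHH levels were 0.712%, 0%, 0% and 1.27% against 5% to 18.7%, a difference of -10.8 points (SE 1.91, limma adjusted p = 0.000131). The groups did not overlap in any context, and no other TE gene was called lower in all 3. The CHH call was lost when deposited values of exactly 1 were kept as levels. AT2TE08225 (chr2:1781547-1786791) was at 21.2%, 20.8%, 23.6% and 16.4% CG in 9518, below the 67.4% of the lowest other accession. In CHG it was at 2.24%, 0.224%, 0.620% and 0.763% against 39.1% to 63.5%, a difference of -50.1 points (SE 1.64, limma adjusted p = 2.12e-33). AT2G05040, described for its place in this stretch after its values were seen, averaged 33.7% CG and 0.736% CHH in 9518 against 79.2% and 10.1% elsewhere.

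RE2 (AT4G02960, chr4:1312548-1316983), a retrotransposon on a chromosome arm, was at 2.63%, 5.60%, 5.13% and 5.46% CG in 9518. The 29 other accessions with data ranged from 64.4% to 100%, well above each of these libraries. In CHG it was at 1.20%, 0.685%, 0.370% and 0% against a mean of 42.7%, but another accession was at 0%, so 9518 lay inside the range and was not called. AT3G29775 (chr3:11665357-11669402) was at 2.04%, 2.59%, 0% and 0.625% CG against 18.7% to 100%. In this TE gene too CHG was at 0% in 9518 and in another accession. AT2G16010 (chr2:6965611-6965999), a TE gene of 389 bp, was at 0% CG and 0% CHG in every library of 9518. The other accessions averaged 89.99% CG and 32.3% CHG, with a difference of -32.3 points (SE 8.35, limma adjusted p = 0.0105) in CHG, while its CHH levels of 0% to 2.78% overlapped those of the others.

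Other TE genes were reduced in CHG or CHH. AT3G44215 (chr3:15919240-15923690) was at 0.604%, 0.866%, 0.248% and 0% CHG against a mean of 44.1%, a difference of -43.6 points (SE 5.66, limma adjusted p = 6.04e-08). The lowest other accession, at 0.632%, was as low as these libraries, so 9518 was not alone in this state. AT2G40680 (chr2:16972830-16973719) was at 0%, 20%, 18.2% and 0% CHG against 28.8% to 78.1%, without overlap. AT3G43130 (chr3:15110607-15112253) was at 0% CHG in its 3 libraries with data against 10.1% to 58.5%, a call lost with values of exactly 1 kept as levels. In CHH, AT2G06100, AT2G16670 and AT2G16680 were called lower on 3 libraries each, at levels from 0% to 12.5%, and each lay higher in 9518 when deposited values of exactly 1 were kept as levels.

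**Figure D4:**
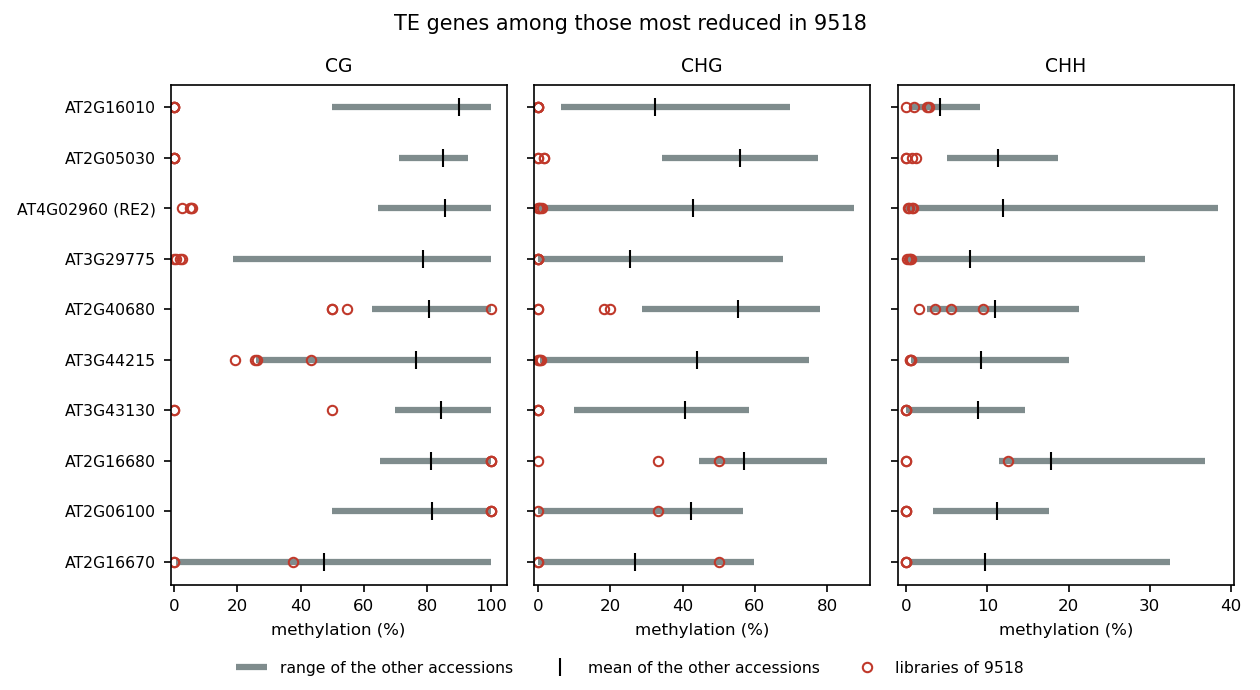
Methylation (percent, x axis) of 10 TE genes named for the largest reductions in any context (y axis). Red circles are libraries of 9518, grey lines the range and ticks the mean of the other accessions, and AT2G05030 lies outside the grey line in all 3 contexts.

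Gains at TE genes were fewer. AT4G12180 (chr4:7275741-7277964), on an arm, was at 41.9%, 44.4%, 44.1% and 40.8% CHG in 9518 and 3.54% on average elsewhere, a difference of 39.3 points (SE 1.28, limma adjusted p = 2.41e-26). Its CHH was at 11.1%, 13.7%, 13.9% and 12% against 0.990%, a difference of 11.7 points (SE 0.368, limma adjusted p = 1.07e-28). The highest other accession reached 41.95% CHG and 11.2% CHH, inside the spread of the libraries of 9518, and the CHG call was lost with the values as deposited. In CG it was at 79.2% to 80.9%, and another accession was at 100%. AT3G60930 was the 1 TE gene called higher in CG, at 93.1%, 93.5%, 90.9% and 100% against a highest other accession of 94.1%. In 3 of the 4 libraries it was below that accession, and it was not called without replicate 4 of 9518.

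Protein-coding genes had a mean CG level of 11.6% ± 0.155 (SD, n = 4) in 9518 and 13.8% ± 2.48 (SD, n = 31) elsewhere, and 6911, 9512 and 10012 were lower. The difference was -2.25 points in 3817 genes over a TE fragment and -2.16 points in 22227 genes without one. CHG was at 1.30% against 1.44% and CHH at 0.599% against 0.645%.

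At single protein-coding genes, CHG and CHH calls by the full rule were more often higher than lower. The rule cannot call a loss where another accession is already at 0%. On the adjusted p alone the higher and lower genes numbered 1186 and 4467 for CG, 342 and 368 for CHG and 173 and 76 for CHH, so the balance turned in CG and CHG. By the full rule in CG 60 of 26044 were called higher (0.23%) and 49 lower (0.188%). In CHG 34 of 25959 were higher (0.131%) and 8 lower (0.0308%), and in CHH 19 of 26055 were higher (0.0729%) and 4 lower (0.0154%). With every library outside the range the counts were 27 and 20 for CG, 19 and 1 for CHG and 15 and 0 for CHH. Of the 60 genes higher in CG, 24 had a library at exactly 100%. In 9518, 22 of the 60 had at least 10% CHG and 32 had under 2%, while elsewhere 1 had at least 10%. Of the 49 genes lower in CG, 33 had under 2% CHG on average elsewhere and 10 had at least 10%. Most of them thus carried CG methylation with little CHG in the other accessions. In 9518, where their CG was reduced, 42 had under 2% CHG.

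Methylation was gained in all 3 contexts at 15 protein-coding genes, a state that in plants is typical of silenced TEs. They were at 48.6% to 85.2% CG, 20.1% to 57.4% CHG and 5.61% to 13.4% CHH in 9518. For 11 of them no other accession reached 30% CG, and for 12 none reached 10% CHG. An annotated TE fragment lay in 3 of the 15, AT3G44555, SDH3-2 and AT5G60430, against 14.7% of all protein-coding genes tested in CG. There were 3 pairs of close neighbours among them, 105 to 406 bp apart. In the 400 bp window around the gene start, called the promoter here, 14 of the 15 had values in 9518, and 8 were called higher for CG, 9 for CHG and 6 for CHH. Over all protein-coding promoters these shares were 0.951%, 0.237% and 0.14%. The inner 200 bp of each window lie in the gene body whose values chose these genes. The promoter counts thus restate part of the gene-body gain.

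The neighbours AT4G35680 (chr4:16917892-16918897) and AT4G35685 (chr4:16919003-16920008) lie 105 bp apart, and AT4G35685 had the highest CG level of the 15. It was at 80.8%, 88.9%, 86.2% and 85% CG in 9518 and at most 4% in another accession, a difference of 84.6 points (SE 0.715, limma adjusted p = 3.86e-65). AT4G35680 was at 80.3%, 78.9%, 77.03% and 72.7% against at most 2.42%, a difference of 76.7 points (SE 0.809, limma adjusted p = 5.36e-60). No library of 9518 came near the other accessions at either gene. In CHG they were at 37.04% to 48.6% and 43.2% to 51.6%, with the other accessions at or below 3.03% and 1.14%. Both are annotated with the same length of 1006 bp, and whether they share sequence, and so reads, was not tested. The promoter of AT4G35685 was at 86.7%, 100%, 90.9% and 100% CG against at most 33.3%.

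AT3G54065 (chr3:20021255-20022235) and AT3G54070 formed another pair. AT3G54065 was at 80.2%, 80%, 89.9% and 80.6% CG against at most 19.9% elsewhere, a difference of 79.00 points (SE 1.39, limma adjusted p = 7.87e-48). AT3G54070 was at 90.5%, 66.7%, 57.1% and 66.7% against at most 8.89%. Their CHG averaged 51.1% and 33.7% in 9518, and the highest other accession was at 2.82% and 1.64%. The third pair differed in its starting state. AT3G20270 was at 61.3% to 64.6% CG against at most 19.6%, whereas AT3G20280 already had 29.98% CG on average elsewhere, with at most 1.30% CHG. In 9518 AT3G20280 was at 74.3%, 52.6%, 69.01% and 72.5% CG and 21.2%, 11.7%, 22.2% and 25.2% CHG. Its CHH gain was not called without replicate 3 of 9518.

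Single genes showed the same state. AT3G47020 (chr3:17319862-17321077) was at 82.98%, 90.8%, 80.9% and 83.1% CG against at most 10.3%, a difference of 82.5 points (SE 1.26, limma adjusted p = 3.85e-51). Its CHG was at 58.7%, 45.6%, 65.7% and 45% against at most 3.27%, so neither context overlapped. AT5G37740 (chr5:14991880-14993781) was at 72.9% to 82.2% CG and 31.9% to 37.99% CHG against at most 23.03% and 2.66%, and its promoter stayed at 0% CG. AT1G68280 (chr1:25592286-25593640), listed by RefSeq as acyl-lipid thioesterase 4, was at 60%, 60%, 65.2% and 76.5% CG against at most 4.23%. Its CHG libraries were uneven, at 36%, 15.8%, 58.6% and 36.8%, and all stood above the highest other accession at 1.42%. AT2G43670 and AT3G10790 were uneven in CG, at 40% to 79.2% and 32.1% to 76.9%, still above the 4.55% and 9.24% of the highest other accession. AT3G44555 was at 71.4% to 80% CG against at most 8.41%, and its calls in all contexts were lost with the values as deposited.

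At the remaining 3 genes other accessions carried part of the gain. AT5G60430 (chr5:24301549-24303369) was at 82.5%, 84.3%, 81.1% and 77.05% CG and 55.7% to 59.3% CHG, and the highest other accession was at 74.3% and 39.05%. Its CHG and CHH calls, and those of SDH3-2, were lost with the values as deposited. AT5G37250 was at 76.4% to 86.9% CG against at most 76.2%, and its CHH gain was not called without replicate 1 or replicate 2 of 9518. SDH3-2 (AT4G32210), which encodes a subunit of mitochondrial succinate dehydrogenase, was at 62.9%, 58.1%, 60.98% and 57.4% CG against at most 54.1%. Its lowest CHG library was at the level of the highest other accession, 18.2%.

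**Figure D5:**
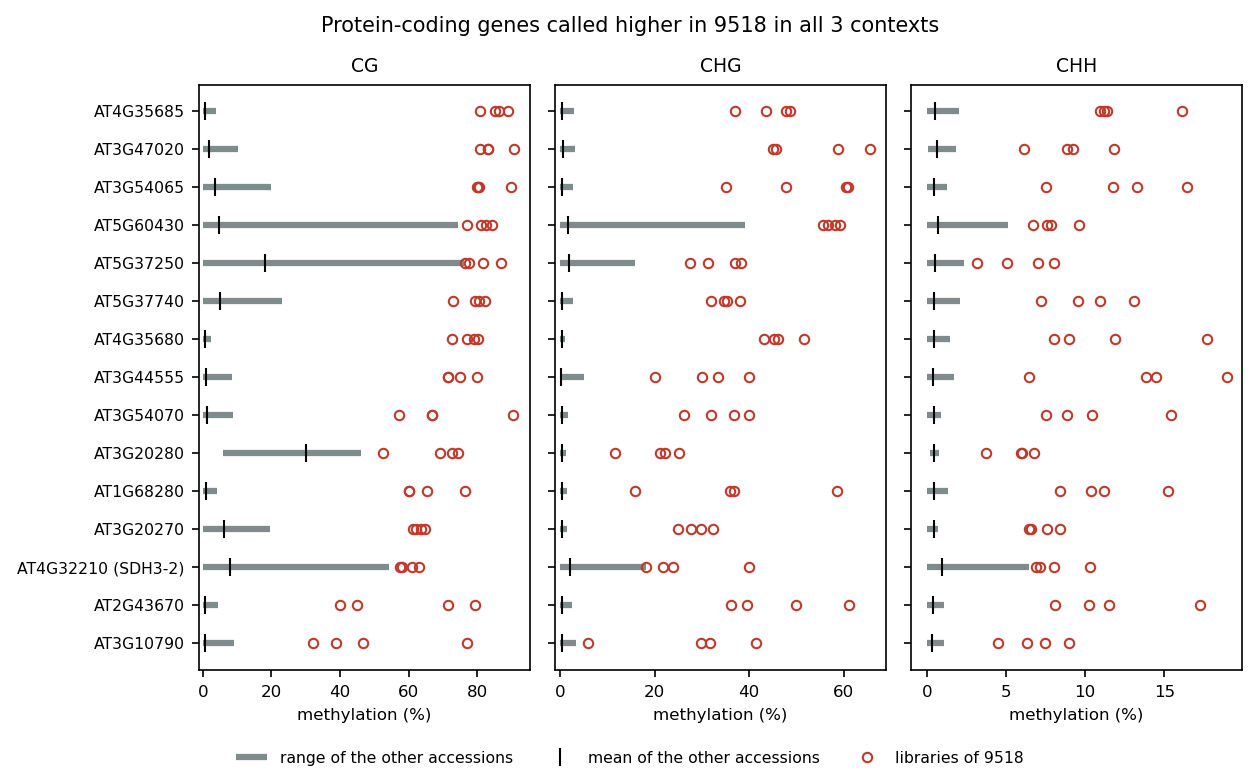
Methylation (percent, x axis) of the 15 protein-coding genes called higher in 9518 in all 3 contexts (y axis). Red circles are libraries of 9518, grey lines the range and ticks the mean of the other accessions, and AT4G35685 is at 80.8% to 88.9% CG with the others at or below 4%.

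Outside these 15 genes, AT1G59724, a gene of 679 bp over a TE fragment, was at 100% CG in every library of 9518 against at most 50%, a difference of 94.7 points (SE 11.6, limma adjusted p = 3.21e-09), while its CHG and CHH were at 0%. Its CG values are all exactly 100%, and with such values read as no data it could not be fitted. CNGC11 (AT2G46440), a cyclic nucleotide gated channel gene, was called higher in CG on 1 library at 100% with the other 3 at 0%, and in CHH on 1 library at 50% with 3 at 0%. Without that library, replicate 2, its CHH difference was -0.398 points.

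Losses at protein-coding genes were called more often in CG than in CHG or CHH, with 49, 8 and 4 genes. AT5G35760 (chr5:13934108-13935088) was at 0%, 2.86%, 5% and 0% CG in 9518 and 51.2% on average elsewhere, a difference of -49.2 points (SE 4.58, limma adjusted p = 3.99e-13), just below the lowest other accession at 5.36%. AT5G39490 was at 0.813%, 0%, 0% and 5% against a mean of 50.3%, and an accession at 2.16% lay inside its libraries. AT5G39770 was at 41.7%, 15.4%, 11.8% and 28.3% against 35.6% to 93.7%, and AT3G17190 at 30.8%, 20%, 45.5% and 35% against 33.3% to 100%, with 1 and 2 libraries inside the range of the others. The call of AT3G17190 ended without replicate 1 or replicate 2 of 9518. The promoter of AT3G17190 was at 0% CG in all 4 libraries against 33.3% to 100%, a difference of -83.5 points (SE 4.08, limma adjusted p = 1.67e-21).

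Some genes nearly unmethylated in 9518 were so in another accession too. AT3G50320 (chr3:18653731-18654717) was at 0%, 0.317%, 0.826% and 0% CHH against a mean of 11.6% and was called, a difference of -11.3 points (SE 1.85, limma adjusted p = 2.41e-05). Its CG was at 0%, 0%, 1.33% and 1.54% against a mean of 86.7%, but the lowest other accession was at 0.676%, so CG was not called. AT1G19086 (chr1:6588542-6589338) was likewise at 1.67% CG and 0.307% CHH on average against 82.1% and 13.5%, and its CHH call ended without replicate 2 or replicate 3 of 9518.

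Genes of the methylation machinery were examined for their own methylation, as these libraries give no expression. Of 22 measured genes of RNA-directed DNA methylation, 1 was called by the full rule, AGO6, which encodes an Argonaute protein that binds small RNAs. Over all protein-coding genes 0.188% were called lower and 0.23% higher. AGO6 (AT2G32940, chr2:13971916-13977521) was at 12.7%, 7.77%, 7.92% and 9.05% CG in its gene body against 11.5% to 63.1%, a difference of -22.9 points (SE 2.27, limma adjusted p = 3.69e-12), with 1 library inside the range of the others. The list had a median CG difference of -3.05 points, against -0.973 points over all protein-coding genes. On the limma adjusted p alone 9 of the 22 passed, against 21.7% of all protein-coding genes, and CLSY2, a chromatin remodeller of this pathway, was among them on the higher side, at 42.9% against 26.7%. None of the 7 DNA methyltransferase genes was called by the full rule, with a median of -1.63 points. At an unadjusted limma p under 0.05 there were 2 of 7, near the 32.8% of all protein-coding genes. MET1 was at 13.0% CG against 13.9%, and CMT2 at 8.77% against 21.2% (limma adjusted p = 1.24e-05) but inside the range of 0.333% to 45.3%. None of the 4 demethylase genes and none of 13 measured heterochromatin and maintenance genes was called, with 0 of 4 and 5 of 13 at the same unadjusted p. DDM1, a chromatin remodeller needed for TE methylation, was at 30.3% against 25.8%. In CHG and CHH no gene of these 4 lists met the full rule in its gene body. On the limma adjusted p alone 1 methyltransferase gene, CMT1, passed in both contexts, and 1 gene of RNA-directed DNA methylation, CLSY1, in CHG. Over all protein-coding genes 2.74% passed in CHG and 0.956% in CHH. At an unadjusted limma p under 0.05 the methyltransferase genes numbered 1 of 7 in CHG and 1 of 7 in CHH. Those of RNA-directed DNA methylation numbered 4 of 22 in CHG and 0 of 22 in CHH. The shares of all protein-coding genes at that p were 7.84% and 6.22%. No gene of the other lists passed either threshold in these contexts. In promoters VIM1, a cofactor of MET1, was called higher in CG on 1 library at 100% with 3 at 0%.

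Known epiallele genes, which occur in methylated and unmethylated states among accessions, gave 0 calls by the full rule among 15 in each context. On the limma adjusted p alone 6, 5 and 2 of the 15 passed in CG, CHG and CHH, and 8, 7 and 3 on an unadjusted p under 0.05. Over all protein-coding genes 21.7%, 2.74% and 0.956% passed on the adjusted p, and 32.8%, 7.84% and 6.22% on the unadjusted p. PAI1 and PAI2, copies of a tryptophan biosynthesis gene, were at 79.0% and 85.8% CG in 9518, against 25.8% and 30.3% on average elsewhere, and other accessions reached 91.7% and 100%. Their near-identical sequences make the share of reads of each copy uncertain. SNC1, a disease resistance gene, was at 0% in 9518 against 20.9%, and the lowest other accession was also at 0%.

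In promoters of protein-coding genes most calls by the full rule were higher, and the rule cannot call a loss where another accession is at 0%. Their mean CG level was slightly lower in 9518, at 5.29% against 5.63%. Of these promoters 77.4% lay below the mean of the other accessions. In CG 236 of 24821 were higher (0.951%) and 15 lower (0.0604%), but 215 of the 236 had a library at exactly 100%, and 19 remained with every library outside the range. In CHG 57 of 24088 were higher (0.237%) and 3 lower (0.0125%). On the limma adjusted p alone 721 were higher and 504 lower in CG, and 489 and 197 in CHG. In CHH 35 of 24920 were higher (0.14%) and 0 lower. There limma gave 170 higher and 13 lower on the adjusted p alone, and 1186 higher and 142 lower on an unadjusted p under 0.05. TE gene promoters went the other way in CG and CHG, with 29 of 1906 lower in CG (1.52%) and 4 higher (0.21%), and 13 of 1701 lower in CHG (0.764%) and 7 higher (0.412%). In CHH 8 of 1909 TE gene promoters were higher (0.419%) and 0 lower. For these limma gave 15 higher and 11 lower on the adjusted p alone, and 73 higher and 126 lower on an unadjusted p under 0.05. Over all Araport11 promoters 359 of 47836 were higher in CG (0.75%) and 194 lower (0.406%), and in CHG 146 of 44318 were higher (0.329%) and 44 lower (0.0993%). The promoter of AT3G28925 was at 100% CG in each library of 9518 against a mean of 6.20% and a maximum of 91.5%. That of HMGB5 (AT4G35570), a chromatin protein gene, was at 100% CG in its 3 libraries with data against at most 50%, a call lost when the values were used as deposited. That of AT3G19520 was at 87.1%, 83.8%, 65.6% and 59.4% CHG against at most 70.3%, and its call ended without replicate 1 of 9518.

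Long noncoding RNA (lncRNA) loci, transcribed without a protein product, were annotated by the authors, and over all loci of that annotation 100 of 34604 gene bodies were called higher in CG (0.289%) and 127 lower (0.367%). In CHG 55 of 34319 were higher (0.16%) and 49 lower (0.143%), and in CHH 29 of 34609 were higher (0.0838%) and 15 lower (0.0433%). Intergenic lncRNA loci were at 28.2% CG ± 0.325 (SD, n = 4) in 9518 and 30.5% ± 1.93 (SD, n = 31) elsewhere. The 620 loci over a TE fragment differed by -4.25 points, second lowest of the 32 accessions, and the 1053 without one by -1.51 points, rank 7 from below. In CHG the intergenic loci were at 9.93% against 10.2%, rank 12 from below. That difference of -0.250 points was -0.416 without replicate 1 of 9518, -0.158 without replicate 2 and 0.724 with the values as deposited. Antisense lncRNA loci, which overlap a gene on the other strand and share its cytosines, were at 10.9% CG against 12.8%.

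Single intergenic lncRNA loci were called higher in CG at 12 of 1673 (0.717%) and lower at 7 (0.418%), in CHG at 5 of 1585 (0.315%) and 3 (0.189%), and in CHH at 2 of 1674 (0.119%) and 1 (0.0597%). CUFF_NC.9891 (chr5:9902454-9903435) was at 88%, 75%, 79.3% and 71.4% CG in 9518 against at most 5.24%, a difference of 77.7 points (SE 1.18, limma adjusted p = 1.33e-43), and at 18.2%, 10%, 7.5% and 17.6% CHG against at most 3.70%. CUFF_NC.3515 (chr2:6678048-6678451), over a TE fragment, was at 85.3%, 71.4%, 64.3% and 87.5% CG against at most 36.4%. Neither locus overlapped with the other accessions in CG, and the CG call of CUFF_NC.9891 was lost with the values as deposited. CUFF_NC.9066 was at 77.5%, 77.6%, 77.2% and 75.2% CG against a mean of 10.4%, and another accession reached 76.1%. On the lower side CUFF_NC.9809 (chr5:9089638-9090386) was at 0% CG in every library against 3.12% to 91.5%, a difference of -61.9 points (SE 6.96, limma adjusted p = 4.38e-10). CUFF_NC.1480 was at 10.5%, 0%, 18.97% and 0% against a mean of 67.2%, with a library above the lowest other accession at 14.3%. In CHG the calls of CUFF_NC.1342 and CUFF_NC.3507 were lost when the sowing round was fitted as a block, which left 3 higher in place of 5. Both were also lost without replicate 2 or replicate 4 of 9518. In promoters 5 of 1543 were higher in CG (0.324%) and 7 lower (0.454%), and 5 of 1384 were higher in CHG (0.361%) and 1 lower (0.0723%). Over all promoters of the authors' annotation 275 of 32666 were higher in CG (0.842%) and 48 lower (0.147%), and in CHG 70 of 31503 were higher (0.222%) and 8 lower (0.0254%). The promoter of CUFF_NC.3057 was at 0%, 25%, 0% and 0% CG against at least 50% elsewhere.

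Antisense lncRNA loci were called higher in CG at 31 of 7880 (0.393%) and lower at 30 (0.381%), in CHG at 15 of 7842 (0.191%) and 1 (0.0128%), and in CHH at 8 of 7882 (0.101%) and 2 (0.0254%). CUFF_NC.6540, antisense to AT3G47020, was at 80%, 82.8%, 76.9% and 83.8% CG against at most 23.4%, and CUFF_NC.11135, antisense to AT5G60430, at 57.9%, 54.7%, 59.4% and 64.9% CHG against at most 36.9%. Both lie over genes of the 15 above and restate their gain. CUFF_NC.9118 (chr5:1696527-1696802) was at 0% CG in every library of 9518 against 29.1% to 89.2%, a difference of -69.5 points (SE 6.16, limma adjusted p = 5.13e-14).

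Loci without data in all 4 libraries of 9518 but with data in every other accession numbered 15 TE genes, against 0 to 13 for the other accessions with 4 libraries, and 51 TE fragments, against 0 to 57. There were 7 such protein-coding genes, against 0 to 11, 2 intergenic lncRNA loci, against 0 to 9, and 4 antisense ones, against 0 to 2. Chosen after their values were seen, CUFF_NC.4828 on chromosome 2 overlaps CNGC11, where single libraries stood at 100% and 50%, and CUFF_NC.7310 (chr4:1318879-1319185) lies near RE2. Whether the sequence is missing at these loci was not tested.

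By CG levels over 1640 TE genes, the accession most like 9518 was 9588 (Pearson r = 0.780), followed by 6069 (r = 0.773) and 9888 (r = 0.770), and over 25295 protein-coding genes it was again 9588 (r = 0.853). These are descriptions across loci that share the reference annotation. Accession 9588 did not share the low level, since its TE genes were at 74.1% CG, 39.7% CHG and 8.45% CHH.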

How the data were processed

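Whole-genome bisulfite sequencing of leaves gave, in the tables the authors deposited, the fraction of methylation per locus and library, on TAIR10 per the submitters' processing notes. The aligner, caller and averaging formula are, in the sources used here, not given, and no read counts came with the fractions. There were 12 tables: 3 contexts, gene bodies and promoters (400 bp windows centred on the gene start), and the Araport11 and the authors' own annotation. CHH of exactly 1 was read as no data in every context and CHG of exactly 1 as no data in CHG, and CG loci at 1 in all remaining libraries were dropped. Loci needed at least 3 libraries of 9518 and 25 of 31 other accessions. A one-way model over 32 accessions was fitted per table with limma 3.58.1 in R 4.3.3, with Benjamini-Hochberg adjustment over the table, and tested on simulated data. Named loci were those called with the largest absolute difference per class, context and direction, called members of 5 gene lists, and protein-coding genes called in all 3 contexts. Members and lists were chosen with earlier results of these data known. Pericentromeres are 500 kb bins with at least 40% TE cover. Gene names came from the TAIR10.1 RefSeq table, and overlaps with TE fragments, of at least 1 bp, from bedtools 2.31.1. Replicates are sowing rounds with separate plants. Round numbers pair libraries by the labels, but deviations from accession means correlated across loci at only -0.0169 to 0.0157.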

Additional observations from a re-analysis of the deposited data

Results flagged for a closer look

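In 17 of 147 sets of 4 libraries of 9518 (11.6%), 1 library stood apart from the other 3, by a gap past Dixon's 95% critical value. Independent draws from a normal distribution pass that value about 1 in 20 times. The sets here include loci named for large differences, several contexts of a gene, and bounded or tied values. The rate of 1 in 20 is thus no measure of chance for them. Among class levels the sets with a library apart were the CHH level of TE genes, at 5.79% in 1 library, and the CG level of antisense lncRNA loci, at 10.8%. The library apart was the lowest at RE2 (AT4G02960), at 2.63% CG, and at CUFF_NC.9066, at 75.2% CG. It was the highest at AT3G54065 with 89.9% CG, at AT4G35685 with 16.1% CHH and at AT5G39490 with 5% CG.

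In other sets 1 library differed from 3 at the same or a similar value. In gene bodies these were, with the value of that library, CNGC11 (AT2G46440) with 50% CHH, AT5G62970 with 3.33% CHG, CUFF_NC.3471 with 0.971% CHH and CUFF_NC.9871 with 8.33% CHG. In promoters they were VIM1 (AT1G57820) with 100% CG, AT5G39640 with 5% CHG, CUFF_NC.1305 with 75% CG, CUFF_NC.3057 with 25% CG, CUFF_NC.4804 with 54.3% CHH and CUFF_NC.7453 with 28.8% CHH.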

How the results depend on the processing

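Counts of called gene bodies are given in the order CG higher and lower, CHG higher and lower, CHH higher and lower, and were 141, 279, 126, 184, 102 and 34 over the Araport11 table and 12, 7, 5, 3, 2 and 1 for intergenic lncRNA loci. Asking that every library of 9518 lie outside the range gave 41, 74, 27, 47, 23 and 16, and for intergenic lncRNA 3, 2, 1, 0, 0 and 0. Without the range criterion they were 666, 1547, 316, 700, 163 and 131, and for intergenic lncRNA 64, 125, 37, 48, 10 and 2. With values of exactly 1 kept as levels, CG lower was 433 and the CHG and CHH counts 234, 336, 322 and 123, and for intergenic lncRNA, from CG lower on, 13, 20, 7, 19 and 7. Loci with a value in every library of 9518 and every other accession gave 164 CG lower, 65 CHG higher, 46 CHH higher and 21 CHH lower, and for intergenic lncRNA 7 and 3 in CG, 3 CHG higher and 1 CHH higher. Regions of at least 500 bp gave 93, 82 and 54 higher in CG, CHG and CHH, and 7 intergenic lncRNA higher in CG. At thresholds of 10, 5 and 2.5 points 521 were lower in CG and 65 in CHH, and 11 intergenic lncRNA lower in CG. The arcsine square root gave 56 CHH lower, and 1 intergenic lncRNA CHH higher, and leaving out the 3 accessions with 1 library gave 5. Reading CG of exactly 1 as no data gave 79 and 184 in CG. The replicate block left 3 intergenic lncRNA loci higher in CHG and moved no other count by over 1.5 times.

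Leaving out 1 library of 9518 at a time gave 138 to 143 and 272 to 304 for CG, 122 to 127 and 136 to 166 for CHG, and 92 to 121 and 22 to 26 for CHH, the 22 without replicate 3. For intergenic lncRNA it gave 11 to 13 and 7 to 10, 4 to 6 and 1 to 2, and 1 to 6 and 0 to 1, with 1 CHG lower without replicate 1, 2 or 3, 1 CHH higher and 0 lower without replicate 1, and 6 CHH higher without replicate 4.

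The differences in mean level were most changed by keeping values of exactly 1. TE genes then differed by -4.17 points of CG, -2.51 of CHG and 0.602 of CHH, and TE fragments by -1.27, 0.591 and 1.61 points. Intergenic lncRNA differed by -1.96, 0.724 and 0.247 points, antisense lncRNA by -0.0838 in CHG and 0.0243 in CHH, and protein-coding genes by -0.00628 in CHH. Regions of at least 500 bp gave -2.30 points in CHG and -0.924 in CHH for TE fragments, and -2.79 in CG and -0.417 in CHH for intergenic lncRNA. Without accessions with 1 library, protein-coding genes differed by -2.38 and antisense lncRNA by -2.04 points in CG. Leaving out a library, TE genes differed by -5.78 to -5.46 points of CG, -4.58 to -4.30 of CHG and -1.30 to -1.24 of CHH.

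Of 153 named results, 60 kept their call under every alternative in which their locus was fitted. An alternative that left a locus out did not count against its call. Of the 153, 95 could be fitted with values in every library of 9518 and every other accession. The call was lost by 52 as deposited, by 67 when every library had to lie outside the range, and by 39 without some replicate. Kept as deposited, the CHH difference was 6.02 points at AT2G06100, -2.61 at AT2G14320, 10.4 at AT2G16670, 5.53 at AT2G16680, 16.1 at AT3G42060, 10.5 at AT5TE46165 and -21.4 at the promoter of CUFF_NC.7453, each with the opposite sign. Leaving out a library, CHH at CNGC11 (AT2G46440) ran from -0.398 to 16.3 and at the promoter of CUFF_NC.4804 from -0.393 to 17.7 points, both lowest without replicate 2. CG at the promoter of VIM1 (AT1G57820) ran from -0.184, without replicate 1, to 33.1 points, and was -0.184 with CG of exactly 1 as no data. The cause was not tested. The alternatives on every library and on CG of exactly 1 were chosen after seeing the data. Depth is unknown, so counting error could not be given, and loci with few cytosines or reads take coarse values such as 50% or 100%.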
